A study of Mus musculus with 6 samples.

Results

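Immediate early genes are transcribed within minutes of a stimulus, without new protein synthesis, and their messages decay quickly again. The 10 described here are Fos, Fosb, Jun, Junb, Egr1, Egr2, Ier2, Dusp1, Atf3 and Nr4a1, out of 18193 genes that the arrays name singly. They were taken by symbol: all 12 probe sets whose annotated gene is one of these 10, of 45037 probe sets in all, with 0 further probe sets that name a member together with another gene. Of the 10 genes, 8 passed a filter that kept the upper 50% of probe sets by mean signal, and Egr2 and Atf3 did not.

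The samples were lineage-negative bone marrow cells, that is, marrow from which cells carrying markers of mature blood lineages had been removed, from adult female mice of 6 to 16 weeks. There were 3 C57B/L6 samples and 3 B.D(Chr5) samples, 1 Affymetrix array each, with no treatment listed, and the stated aim was to compare the strains. The labels give the genetic background of the second strain as B.D and name chromosome 5 in the strain, without saying which alleles it carries. They call the samples biological replicates but do not say how many mice went into each, and the tests rest on the spread among these 3 samples per strain, whatever its source. Values are MAS5 signals on a linear scale.

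In cells, growth factors, cytokines, adhesion and stress can all switch these genes on through MAP kinases. These kinases act on serum response factor and its Elk partners and on CREB, which sit on the promoters beforehand. Fos and Fosb proteins pair with Jun and Junb proteins to form AP-1, which binds DNA and drives a later wave of genes. Egr1, Egr2, Atf3 and Nr4a1 encode further transcription factors, Ier2 a nuclear regulator, and Dusp1 a phosphatase that removes the activating phosphates from MAP kinases and so closes the loop.

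Promoters of 5 members are shown because these genes had the widest spread within strains among the tested members. Each is the 250 bases before a RefSeq transcription start (GRCm38.p6), 5′ to 3′ on the gene's strand, with capitals marking TGACG, the core of the cyclic AMP response element that CREB binds, and the related sequence TGACNTCA, on either strand. Windows of 8 of the 10 genes were used, with none for Egr1 or Ier2. The windows lie at chr12:85473640-85473889 (+) for Fos, chr7:19310046-19310295 (-) for Fosb, chr4:95052223-95052472 (-) for Jun, chr17:26508473-26508722 (-) for Dusp1 and chr15:101266596-101266845 (+) for Nr4a1.
Fos: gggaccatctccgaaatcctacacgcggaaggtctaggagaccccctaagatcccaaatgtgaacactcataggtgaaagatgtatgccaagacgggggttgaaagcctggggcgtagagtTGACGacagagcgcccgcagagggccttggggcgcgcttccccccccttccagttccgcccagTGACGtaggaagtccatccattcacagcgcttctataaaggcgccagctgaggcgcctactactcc
Fosb: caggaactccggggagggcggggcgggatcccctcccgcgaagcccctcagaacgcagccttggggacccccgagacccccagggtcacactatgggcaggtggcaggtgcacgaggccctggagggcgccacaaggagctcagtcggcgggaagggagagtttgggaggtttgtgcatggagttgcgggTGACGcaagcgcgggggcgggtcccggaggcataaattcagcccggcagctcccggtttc
Jun: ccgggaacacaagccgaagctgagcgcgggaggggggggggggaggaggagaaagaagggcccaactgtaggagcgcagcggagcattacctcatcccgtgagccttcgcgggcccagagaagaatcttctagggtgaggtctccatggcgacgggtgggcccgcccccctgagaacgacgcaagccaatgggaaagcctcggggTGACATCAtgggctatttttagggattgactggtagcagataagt
Dusp1: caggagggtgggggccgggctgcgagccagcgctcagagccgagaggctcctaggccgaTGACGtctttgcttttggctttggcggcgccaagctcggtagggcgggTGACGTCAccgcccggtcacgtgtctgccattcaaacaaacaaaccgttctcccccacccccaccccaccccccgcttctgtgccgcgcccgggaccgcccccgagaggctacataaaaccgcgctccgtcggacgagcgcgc
Nr4a1: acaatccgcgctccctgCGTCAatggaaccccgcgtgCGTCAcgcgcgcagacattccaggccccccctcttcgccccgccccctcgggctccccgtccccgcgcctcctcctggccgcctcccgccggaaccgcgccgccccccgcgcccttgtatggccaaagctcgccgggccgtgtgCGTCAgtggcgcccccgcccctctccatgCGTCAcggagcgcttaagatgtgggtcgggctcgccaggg

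TGACG was present in 4 of these 5 windows and in 17.8% of all 32851 RefSeq windows of the same length. TGACG was not particular to the genes shown, being present also upstream of Junb and Atf3 and in some windows of Egr2. Counting back from -1, the base before the start, Fos held it at -129 to -125 and at -66 to -62. Nr4a1 held 4 copies, all on the opposite strand, a number reached in 0.137% of all windows. Dusp1 held 3, of which 2 overlap in the palindrome TGACGTCA at -143 to -136, and Fosb held 1, at -60 to -56. Jun had none, and instead the AP-1 variant TGACATCA at -45 to -38, a form of TGACNTCA, which occurs in 7.49% of all windows. The CArG box, which serum response factor binds, had no match in these 5 windows and was found in 1.47% of all windows. Among the other members searched it was found upstream of Egr2, and Egr1 and Ier2 were not searched. A match of letters is not a measured binding site, and sites outside the 250 bases were not searched.

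Of the 10 genes, 8 were above background on all 6 arrays. Background was taken on each array as the 95th percentile of the signals of 27 bacterial controls, which lay between 21.8 and 38.0. Signals of different probe sets depend on the probes, so the levels of different genes were not compared.

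Fos (Entrez gene 14281, chromosome 12), the AP-1 subunit, had signals of 5653, 14725 and 11062 on the C57B/L6 arrays and 8097, 2322 and 5960 on the B.D(Chr5) arrays, replicates 1 to 3 in each strain. The C57B/L6 range overlapped that of B.D(Chr5), because C57B/L6 replicate 1 lay below B.D(Chr5) replicates 1 and 3. Its relative Fosb (Entrez gene 14282, chromosome 7) read 153, 529 and 478 in C57B/L6 and 220, 39.5 and 255 in B.D(Chr5). Again C57B/L6 replicate 1 and B.D(Chr5) replicate 2 were the low arrays of their strains, and the strains overlapped. The lowest Fosb signal, on B.D(Chr5) replicate 2, was close to that array's background of 31.8, so its distance from the other arrays is uncertain.

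Jun (Entrez gene 16476, chromosome 4), the partner of Fos in AP-1, read 3193, 6762 and 6052 in C57B/L6 and 3901, 1307 and 3098 in B.D(Chr5). A second Jun probe set read 756, 1704 and 1155 in C57B/L6 and 872, 327 and 704 in B.D(Chr5), so both probe sets picked out the same low arrays. Junb (Entrez gene 16477, chromosome 8), another AP-1 subunit, had a narrower range, with 455, 719 and 784 in C57B/L6 and 571, 356 and 460 in B.D(Chr5). For both genes the strains overlapped through C57B/L6 replicate 1.

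Egr1 (Entrez gene 13653, chromosome 18), a zinc finger transcription factor, was the 1 tested member whose strains did not overlap. It read 667, 981 and 1171 in C57B/L6 and 536, 414 and 500.1 in B.D(Chr5), so the lowest C57B/L6 array was above the highest B.D(Chr5) array. Nr4a1 (Entrez gene 15370, chromosome 15), an orphan nuclear receptor, read 68.9, 235 and 209 in C57B/L6 and 142, 65.6 and 158 in B.D(Chr5), so the strains overlapped and their lowest arrays were nearly equal. Ier2 (Entrez gene 15936, chromosome 8) read 2457, 3639 and 3272 in C57B/L6 and 2775, 1870 and 2430 in B.D(Chr5). The strains overlapped here too. The highest Ier2 array was 1.48 times its lowest within each strain, the smallest ratio among the tested members for C57B/L6.

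Dusp1 (Entrez gene 19252, chromosome 17), the MAP kinase phosphatase, had the widest range after Fosb in B.D(Chr5). It read 1919, 5369 and 4204 in C57B/L6 and 3071, 733 and 1841 in B.D(Chr5), a ratio of highest to lowest array of 2.80 for C57B/L6 and 4.19 for B.D(Chr5). The strains overlapped.

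Egr2 and Atf3 were at or near background and were not tested. The brighter of the 2 probe sets of Egr2 (Entrez gene 13654, chromosome 10), a zinc finger factor related to Egr1, was above background on 1 of 6 arrays, with a highest signal of 31.8, and the other was also above it on 1 of 6. Atf3 (Entrez gene 11910, chromosome 1), a stress-induced transcription factor, was above background on 5 of 6 arrays but reached only 57.1. Its signals of 5.67, 28.2 and 57.1 in C57B/L6 enclosed those of 38.1, 46.5 and 48.2 in B.D(Chr5), so these 2 genes give no comparison.

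**Figure D1:**
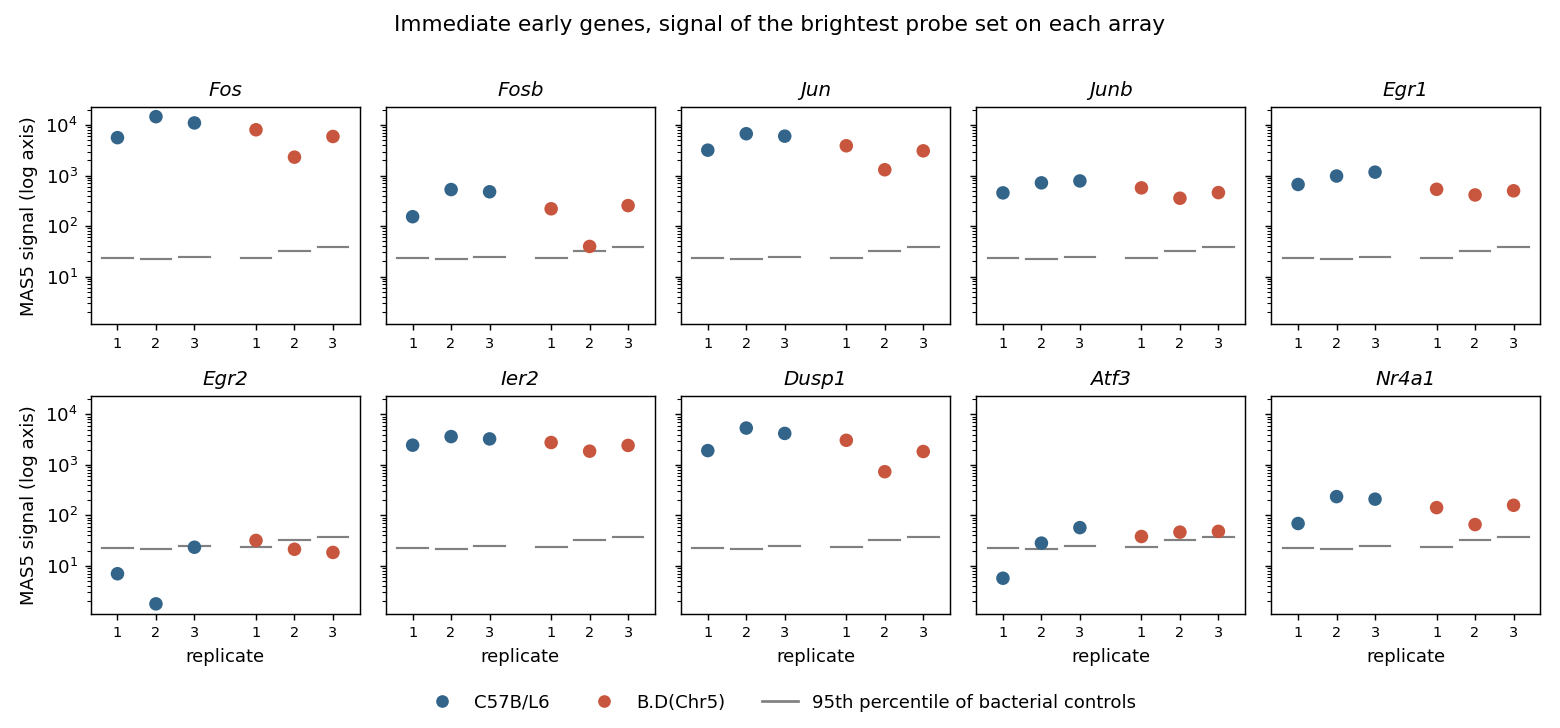
MAS5 signal (log axis) of the brightest probe set of each of the 10 genes on the 3 C57B/L6 arrays (blue) and the 3 B.D(Chr5) arrays (red), with grey bars at each array's 95th percentile of bacterial controls. C57B/L6 replicate 1 and B.D(Chr5) replicate 2 are the lowest arrays of their strains for Fos, Fosb, Jun, Junb, Egr1, Ier2, Dusp1 and Nr4a1, while Egr2 and Atf3 lie below or little above the grey bars.

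The genes moved together within each strain. C57B/L6 replicate 1 was the lowest C57B/L6 array for 8 of 8 tested members, and B.D(Chr5) replicate 2 the lowest B.D(Chr5) array for 8 of 8. Of all 22518 tested probe sets, 17.0% were lowest on both these arrays. B.D(Chr5) replicate 2 was also the lowest of all 6 arrays for 8 of 8 members, against 17.3% of tested probe sets. On the scale of log2(signal + 16), the members averaged -0.70 on C57B/L6 replicate 1 and -0.76 on B.D(Chr5) replicate 2, relative to the mean of the strain. The same averages over all tested probe sets were -0.011 and -0.026, which the scaling of every array to the same trimmed mean keeps near 0.

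Among the higher arrays the order was less uniform. In C57B/L6, replicate 2 was highest for 6 members (Fos, Fosb, Jun, Ier2, Dusp1 and Nr4a1) and replicate 3 for 2, Junb and Egr1. In B.D(Chr5), replicate 1 was highest for 6 members and replicate 3 for 2, Fosb and Nr4a1. Fos, Jun, Ier2 and Dusp1 shared 1 order of the arrays in both strains.

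Over the 28 pairs of tested members, Pearson's r between within-strain deviations on the 6 arrays had a median of 0.93 and ran from 0.78, for Egr1 with Fos, to 0.99, for Jun with Fos. These points share arrays and number only 6, and r is given as a description. For Fos, r was at least 0.9 with 6 of the 7 other members and with 3.72% of all tested probe sets. Egr1 was least like the rest, with r of at least 0.9 for 2 of 7 members, Junb and Nr4a1.

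The spread was wide as well as shared. The residual SD within strains on the log2 scale was 1.11 for Fosb, 0.91 for Dusp1, 0.83 for Fos, 0.74 for Nr4a1 and 0.71 for Jun, against a median of 0.17 over all tested probe sets. These 5 genes lay between the 98.9 and 99.9 percentiles of tested probe sets. Junb, Egr1 and Ier2 varied less, with residual SDs of 0.37, 0.32 and 0.29. Set against Fos on the same array, Jun varied little. The log2 ratio of their signals had an SD of 0.16 over the 3 C57B/L6 arrays and 0.11 over the 3 B.D(Chr5) arrays. Its mean differed between the strains by -0.00071. For Dusp1 these SDs were 0.080 and 0.16. The other members varied more against Fos, with SDs from 0.22 (Nr4a1) to 0.44 (Egr1) in C57B/L6. In B.D(Chr5) theirs ran from 0.43 (Nr4a1) to 0.75 (Egr1). The mean ratio to Fos differed between the strains by 0.54 for Junb, 0.61 for Ier2 and 0.65 for Nr4a1. For Fosb, Dusp1 and Egr1 it differed by -0.22, -0.11 and 0.10.

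Other measures moved with the same arrays. All 3 probe sets of 18S ribosomal RNA ranked the arrays in exactly the opposite order to Fos in both strains. The middle 18S probe set read 1495, 670.4 and 936 in C57B/L6 and 646, 2758 and 1497 in B.D(Chr5). Ratios of 3' to 5' probe sets, a sign of RNA degradation, were between 1.14 and 1.21 for actin and between 0.742 and 0.845 for Gapdh. The actin ratio had neither the order of Fos nor its opposite in either strain. The Gapdh ratio was 0.806, 0.742 and 0.830 in C57B/L6, again with neither order, and 0.788, 0.845 and 0.843 in B.D(Chr5), the opposite order to Fos there.

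Summed markers of T and NK cells and of marrow stroma and endothelium were also ordered by array. Of 10 lists of cell type markers, 1, that of T and NK cells, had summed signals in the order of Fos in both strains, and 1, that of stroma and endothelium, had them in the opposite order in both. Of 7 measured T and NK cell markers 6 were above background on all arrays and 1 on none. These markers (6 of 9 listed genes tested) summed to 2935, 4195 and 3543 in C57B/L6 and 3884, 2523 and 3303 in B.D(Chr5), and 5 of the 6 were lowest on both low arrays. Stroma and endothelium markers (8 of 10 tested, 6 of 10 above background on all arrays) summed to 3669, 1494 and 2175 in C57B/L6 and 3375, 5238 and 3537 in B.D(Chr5). Of these, the collagen gene Col1a2 read 858, 126 and 354 in C57B/L6 and 493, 1547 and 584 in B.D(Chr5), and the endothelial gene Pecam1 went the other way, with 605 as its lowest signal, on B.D(Chr5) replicate 2. None of the other 8 cell type lists had the same 1 of these orders in both strains. Granulocyte-monocyte progenitors and the list of mast cells, basophils and eosinophils had the order of Fos in B.D(Chr5) only, and B cells in C57B/L6 only. B.D(Chr5) replicate 2 was the lowest of its strain for 8 of 8, 7 of 7 and, for monocytes and macrophages, 6 of 6 markers. For C57B/L6 replicate 1 these counts were 1, 3 and 3. Of 6 tested B cell markers 5 were lowest on both low arrays, the same count as for T and NK cells. Erythroid markers were lowest on either array for 0 of 6. Their sums were highest on these 2 arrays, with 63462, 54999 and 53249 in C57B/L6 and 54306, 66705 and 52922 in B.D(Chr5). The erythroid gene Alas2 was highest on neither of them. Markers of stem and progenitor cells, whose 12 measured genes were above background on all arrays, summed to between 38645 and 41732 in C57B/L6 and between 37862 and 43132 in B.D(Chr5). Between the strains, 4 of 6 T and NK cell markers had a negative log2 change (median -0.40) and 8 of 8 stroma and endothelium markers a positive one (median 1.02), with 0 called by limma in either list and 3 and 4 at an unadjusted p under 0.05. Other cell type lists also differed in their counts. Markers of granulocyte-monocyte progenitors were positive for 8 of 8 (median 0.50, 5 at an unadjusted limma p under 0.05), those of maturing neutrophils for 7 of 8 (median 0.38, 5 at that level), those of mast cells, basophils and eosinophils for 6 of 7 (median 0.96, 5 at that level) and those of B cells for 6 of 6 (median 0.75, 3 at that level), with 0 called in each. Megakaryocyte markers were negative for 6 of 6 (median -0.14, 0 at that level) and erythroid markers for 4 of 6 (median -0.028, 1 higher at that level). Those of stem and progenitor cells were negative for 9 of 12 (median -0.14, 1 lower and 1 higher at that level). Those of monocytes and macrophages were positive for 5 of 6 (median 0.20, 0 at that level). Of all tested probe sets, 2.54% were lower at that level and 4.73% were past it in either direction. The 1 marker called in all 10 lists was Slamf1, of stem and progenitor cells, with a log2 change of 1.15 (limma adjusted p = 0.0358). In bulk samples, fewer cells of a type and less RNA per cell cannot be told apart. The part of 18S RNA, of the Gapdh ratio or of these cell types in the values of the immediate early genes was not tested.

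**Figure D2:**
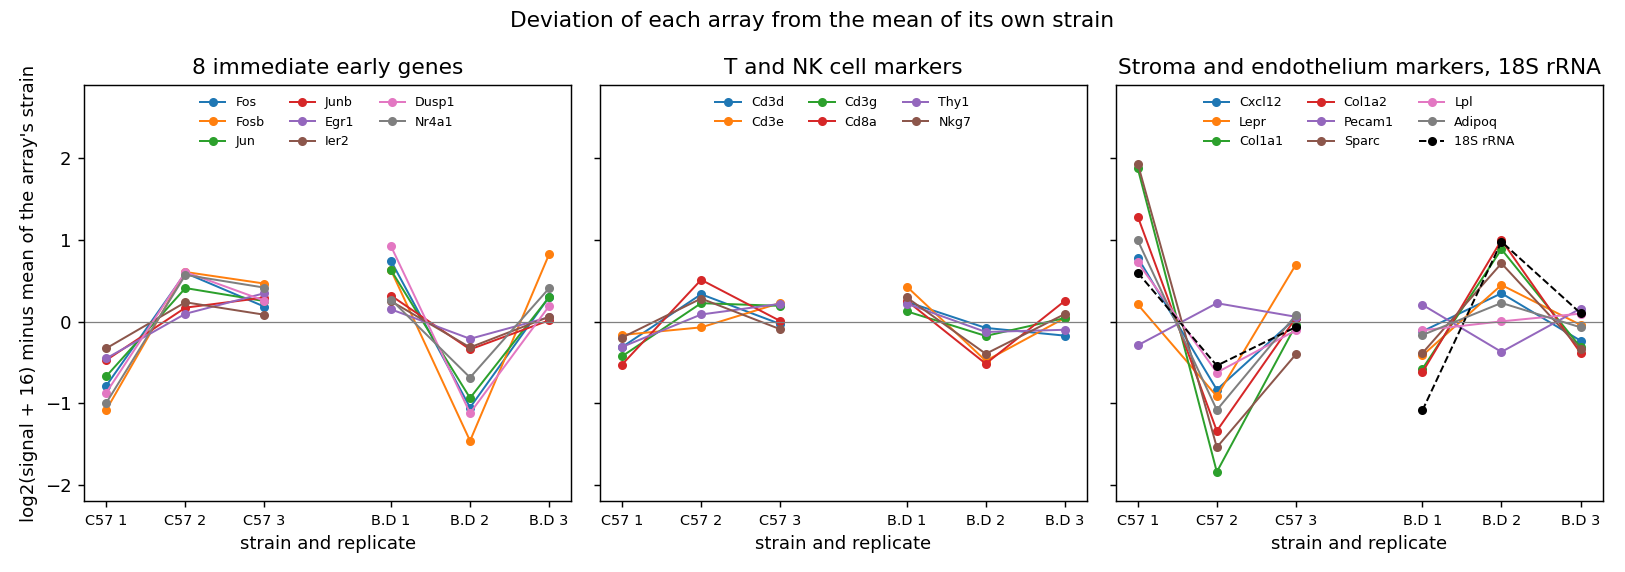
Log2(signal + 16) on each array minus the mean of its strain, for the 8 tested immediate early genes (left), 6 T and NK cell markers (middle) and 8 stroma and endothelium markers with the middle 18S ribosomal RNA probe set (right, dashed). Lines join the values of a gene within a strain and carry no order in time; the immediate early genes are all below 0 on C57B/L6 replicate 1 and B.D(Chr5) replicate 2, where most of the stroma markers and 18S RNA are above 0.

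Compared between the strains, 8 of 8 tested members had lower mean values in B.D(Chr5) and 0 passed limma with Benjamini-Hochberg adjustment over all 22518 probe sets, in which 0.182% were called at an adjusted p under 0.05 and 0.0888% were called as lower. A negative difference was found in 49.8% of all tested probe sets. The median log2 change of the 8 was -0.96, against 0.00036 over all tested probe sets; since the members move together, these 8 directions are not 8 separate observations. At an unadjusted limma p under 0.05, 5 of the 8 were lower in B.D(Chr5), where 2.54% of tested probe sets were lower at that level and 4.73% were past it in either direction.

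Egr1 had the smallest p. Its mean signal was 939.7 (SD 255) in C57B/L6 against 483 (SD 62.8) in B.D(Chr5), n = 3 per strain. The log2 change was -0.91 with a 95% interval of -1.34 to -0.47 and a limma adjusted p of 0.274. An exact permutation test gave p = 0.1, the smallest two-sided p that 3 arrays against 3 allow. It was the 1 of 8 members whose arrays all lay lower in B.D(Chr5), as did 5.24% of tested probe sets.

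For the AP-1 genes the intervals were wide. The mean of Fos was 10480.0 (SD 4564) for C57B/L6 against 5460 (SD 2920) for B.D(Chr5), and its log2 change of -1.01 had an interval of -2.01 to -0.01 (limma adjusted p = 1.00). The mean of Jun was 5336 (SD 1889) against 2769 (SD 1328), with a log2 change of -1.01 (interval -1.88 to -0.15, limma adjusted p = 0.950), and its second probe set gave -0.94. Junb had a log2 change of -0.47 with an interval of -0.97 to 0.03. Fosb had the most negative value, -1.23, and its interval, -2.59 to 0.14, reached past 0. None of these 4 genes passed the test after adjustment over all probe sets.

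Of the rest, Dusp1 averaged 3831 (SD 1755) for C57B/L6 against 1882 (SD 1169) for B.D(Chr5), a log2 change of -1.12 whose interval was -2.22 to -0.02 (limma adjusted p = 1.00). Ier2 averaged 3122 (SD 605) against 2358 (SD 457), and its log2 change was -0.40 (interval -0.78 to -0.02, limma adjusted p = 1.00). Nr4a1 was the least different, with a log2 change of -0.36. Its interval, -1.33 to 0.60, includes both no change and a change as large as that of Fos. Exact two-sided permutation p-values of the 7 members other than Egr1 were between 0.2 and 0.5. Those past an unadjusted limma p under 0.05 were Fos, Jun, Egr1, Ier2 and Dusp1.

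The size of the differences rested on single arrays. Without B.D(Chr5) replicate 2 the median log2 change was -0.49. The log2 change was then -0.49 for Fos, -0.50 for Fosb, -0.54 for Jun, -0.56 for Dusp1 and -0.02 for Nr4a1, with limma adjusted p between 0.818 and 0.997 for these 5 genes. Without C57B/L6 replicate 1 the median was -1.24, and Egr1 passed, with a log2 change of -1.13 (limma adjusted p = 0.0495; over the other settings its adjusted p ran from 0.0869 to 0.915). In that setting the strains did not overlap for 8 of 8 members, against 10.8% of tested probe sets lower in B.D(Chr5) without overlap. The array left out was the lowest C57B/L6 array for all 8. Without B.D(Chr5) replicate 1 they did not overlap for 4 of 8, against 9.14% of tested probe sets. Left out together, C57B/L6 replicate 1 and B.D(Chr5) replicate 2, the arrays of highest 18S signal in their strains, gave a median of -0.88 and 0 called members. The strains then did not overlap for 8 of 8 members, as for 17.7% of tested probe sets. That setting was chosen after the data were seen, and it also removes the lowest array of each strain for the members. With 1 array left out at a time, Egr1 ran from -1.13 to -0.73, Ier2 from -0.56 to -0.25 and Nr4a1 from -0.86 to -0.02.

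**Figure D3:**
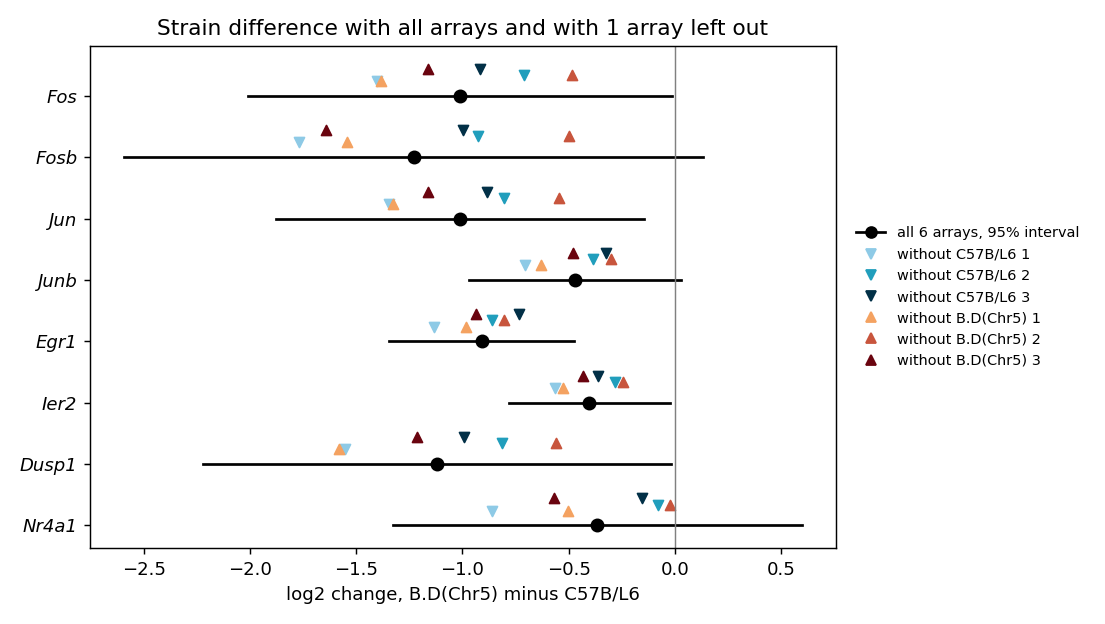
Log2 change, B.D(Chr5) minus C57B/L6, of each tested member with all 6 arrays (black point, with its 95% interval) and with 1 array left out (triangles, pointing down for C57B/L6 and up for B.D(Chr5) arrays). Among the triangles, that without B.D(Chr5) replicate 2 lies nearest 0 for 7 of 8 genes, all but Egr1, that without C57B/L6 replicate 1 is the most negative for 7 of 8, all but Dusp1, and all lie below 0.

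Other genes of the immediate early response shared the low arrays but had smaller median differences. Of 30 further immediate early genes 20 were tested, and 0 were called by limma, with 1 lower and 0 higher at an unadjusted p under 0.05. Their median log2 change was -0.10, with 12 negative and 8 positive, and over the alternative settings this median ran from -0.20 to 0.07, so it has no settled direction. The 3 of smallest p were Jund, Ier5 and Klf6. Jund, an AP-1 subunit that many resting cells also express, read 3739, 5345 and 4869 in C57B/L6 and 3106, 2459 and 3450 in B.D(Chr5), with no overlap and a log2 change of -0.63 (limma adjusted p = 0.407). The log2 change was -0.37 for Ier5 and -0.47 for Klf6, a Krüppel-like factor, both with overlap. These genes shared the low arrays, 15 of 20 being lowest on both C57B/L6 replicate 1 and B.D(Chr5) replicate 2. The Krüppel-like factor gene Klf2, for instance, read 394, 1073 and 814 in C57B/L6 and 750.4, 320 and 739 in B.D(Chr5), with a log2 change of -0.31. Myc, in contrast, read between 5777 and 6924 on all 6 arrays.

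Among genes that restrain the response, and the kinases and factors that start it, 0 passed the test. Of 12 tested feedback and repressor genes (13 listed), 0 were called and 9 were negative, with a median of -0.11 and 1 at an unadjusted limma p under 0.05. That gene was Dusp6, a phosphatase of the kinase ERK, with a log2 change of -0.39. Zfp36, which destabilises messages with AU-rich elements, read 1284, 3035 and 2603 in C57B/L6 and 1923, 921 and 1619 in B.D(Chr5), the array order of Fos, with a log2 change of -0.60. For Spred1, an inhibitor of Ras signalling, the log2 change was -0.20, with no overlap between the strains. Of 17 tested kinases and factors (22 listed), 0 were called and 0 had an unadjusted limma p under 0.05, with a median of -0.034. The 3 of smallest p were Crem, of the CREB family, at -0.27, the MAP kinase kinase gene Map2k1 at 0.20 and the p38 kinase gene Mapk14 at 0.071. The gene of serum response factor, Srf, read between 480 and 551 on all 6 arrays.

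Heat shock genes, induced by another stress pathway, did not share the pattern as a list. All 11 were tested, 0 were called, 5 were negative and 6 positive, with a median of 0.012, and 2 were lower and 1 higher at an unadjusted limma p under 0.05. Hspa1a and Hspa1b, inducible chaperone genes so alike that their probe sets may not separate them, had log2 changes of -2.77 and -2.63 with no overlap (limma adjusted p = 0.541 and 0.336). Hspa1a read 617, 2978 and 876 in C57B/L6 and 507, 145 and 47.5 in B.D(Chr5), so its lowest array was B.D(Chr5) replicate 3 and not replicate 2. In C57B/L6 both Hspa1a and Hspa1b had the array order of Fos, with replicate 1 lowest. Hspa5, the chaperone of the endoplasmic reticulum, had a log2 change of 0.35, also with no overlap (limma adjusted p = 0.624). None of the 11 was lowest on both C57B/L6 replicate 1 and B.D(Chr5) replicate 2.

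**Figure D4:**
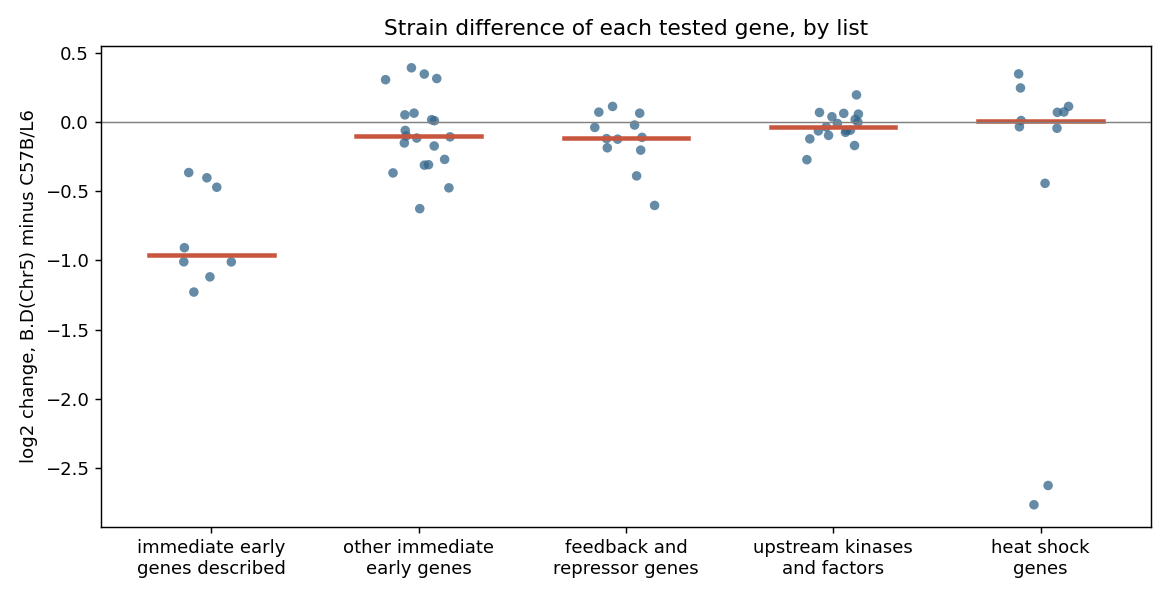
Log2 change, B.D(Chr5) minus C57B/L6, of the brightest probe set of each tested gene (points, spread sideways at random for display) in 5 lists, with the list median as a red bar. The medians are -0.96 for the 8 immediate early genes described, -0.10 for 20 other immediate early genes, -0.11 for 12 feedback genes, -0.034 for 17 kinases and factors and 0.012 for 11 heat shock genes, where the low pair is Hspa1a and Hspa1b.

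Outside these lists, 1303 genes varied by a log2 SD of at least 0.3 over the 6 arrays, and 45 of them (3.45%) had a Pearson's r of at least 0.9 with the members' mean standardised profile over the 6 arrays. The members themselves reached that for 6 of 8, but each member is part of this mean profile, which raises its r by construction. The count of 6 of 8 is therefore not comparable with the 3.45%. The 8 most alike, with r from 0.97 to 0.98, were Tnfaip3, Gimap7, Rxra, Nmur1, Clnk, Id2, Ppp1r15a and Trbv1. Tnfaip3 encodes an inhibitor of NF-kappaB signalling, and it read 382, 562 and 578 in C57B/L6 and 480, 321 and 425 in B.D(Chr5). Ppp1r15a encodes a stress-induced subunit of a phosphatase that restores translation, and it read 726, 1128 and 1068 in C57B/L6 and 775, 599 and 727 in B.D(Chr5). Gimap7 and Trbv1, a T cell receptor variable segment with close relatives, are known from lymphocytes, and Gimap7 read 279, 479 and 400.2 in C57B/L6 and 326, 206 and 272 in B.D(Chr5). None of the 8 passed limma at an adjusted p under 0.05. Clnk, Id2, Ppp1r15a and Trbv1, 4 of them, were lower in B.D(Chr5) at an unadjusted limma p under 0.05, as were 2.54% of tested probe sets. The 8 genes were picked for their r with a profile that is itself lower in B.D(Chr5). This picking favours a strain difference and small p-values, so the count of 4 carries no weight. The r is a description over 6 arrays with no test.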

How the data were processed

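RNA of 6 lineage-negative bone marrow samples, 3 per strain, was hybridised to 1 Affymetrix array each. Each deposited value is the intensity of 1 probe set, not logged, which the authors obtained, per the submitters' processing notes, from the MAS5 algorithm. Its version and settings were not given in the sources used here. On every array the mean after trimming 2% at each end was 500.0. Symbols came from the platform annotation, updated through Entrez identifiers to RefSeq GRCm38.p6. No gene was named from the 932 probe sets annotated with several genes or the 9160 with none, and 64 controls were left out.

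Signals were turned into log2(signal + 16), which understates changes of dim probe sets, and the upper 50% by mean over the 6 arrays were tested with limma 3.58.1 under R 4.3.3 (lmFit, then eBayes with a mean-variance trend) with strain as the only term, two-sided, Benjamini-Hochberg over all 22518 probe sets, threshold 0.05. A gene was called if any tested probe set passed, and its values are those of its brightest probe set. The script was tested on simulated data. The number of arrays limits the precision. No 2 arrays held identical values.

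The members and lists were chosen with earlier results of these data known. Genes named besides the members were, of each of 4 pathway lists, the called genes or otherwise the 3 of smallest p, and the 8 genes most like the members' profile. Myc, Srf, Klf2, Col1a2, Pecam1 and Slamf1 were named after their values were seen. Alternatives covered pseudocounts of 1 and 64, no filter or the upper 25%, quantile normalization, the replicate number as a block, median centring, eBayes without the trend, a gene's mean over probe sets, no _x_at probe sets each array left out and, chosen after seeing the data, both arrays of highest 18S signal left out. RefSeq windows were cut to the 250 bases before the start.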

Additional observations from a re-analysis of the deposited data

How the results depend on the processing

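Over 17 alternatives, 134 of 134 log2 changes of the 8 tested members were negative. These values reuse the same arrays and are not separate observations. The other filters, leaving out the trend and leaving out _x_at probe sets do not alter them. With no filter, 8 of 10 members were lower, and Egr2 and Atf3, at or near background, had positive values (0.64 and 0.54). The count of called members was 0 in all but 1 of the alternatives, and ran from 0 to 1 with an array left out. The exception, without C57B/L6 replicate 1, was Egr1. Members without overlap numbered 1 to 8 with an array left out, and 8 without the arrays of highest 18S signal, where fewer arrays make separation easier. The median log2 change ran from -1.24 to -0.49 with an array left out, was -0.69 with no filter on dim probe sets, which adds Egr2 and Atf3, and kept within -0.97 to -0.88 in the other settings. With the replicate block the members' log2 changes and median (-0.96) are the same by construction, 0 members were called, and the count over all probe sets went from 41 to 25. The deviations of same-numbered arrays had r of -0.11, -0.20 and 0.19 across probe sets, so the numbers are taken as names. The count over all probe sets was 26 without the trend and 22 to 74 with an array left out, highest without B.D(Chr5) replicate 2, and 21 of 10743 genes were called with a mean over each gene's probe sets. Quantile normalization and median centring moved the median of all probe sets to -0.004 and -0.01. The 4 pathway lists had 0 called genes in every setting. Signal over background is the limit for Egr2 and Atf3, which were not compared.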
